A study of Rattus norvegicus with 24 samples.

Results

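The genes described here are the 7 subunits of respiratory complex I that the mitochondrial genome encodes in the rat, out of 31998 genes in the deposited table. They are mt-Nd1 (ENSRNOG00000030644), mt-Nd2 (ENSRNOG00000031033), mt-Nd3 (ENSRNOG00000033615), mt-Nd4l (ENSRNOG00000031053), mt-Nd4 (ENSRNOG00000029707), mt-Nd5 (ENSRNOG00000029971) and mt-Nd6 (ENSRNOG00000029042). They were chosen by identifier for what they encode, and the names come with that choice, since the table holds identifiers alone. RNA-seq was made from plantaris, a muscle of the calf. The animals were female rats aged 14 months from generation 19 of the HRT and LRT lines, bred for high and low response to endurance training. Each line gave 6 control libraries and 6 overload libraries, which makes 4 groups and 24 libraries. In the overload groups the gastrocnemius and soleus had been removed on one side 14 days earlier, which loads the remaining plantaris. The labels give no further treatment for control muscle and do not say whether it came from other animals or from the unoperated leg. They do not state that libraries of a group come from separate animals either, so the p-values reflect variation among these libraries, which may be technical.

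Complex I (NADH:ubiquinone oxidoreductase) takes electrons from NADH, passes them to ubiquinone and pumps protons across the inner mitochondrial membrane. Its matrix arm is made by nuclear genes, while the mitochondrially encoded subunits form the core of the membrane arm. Mitochondrial DNA is copied into long transcripts that are then cut into single mRNAs, largely at the tRNAs between them. Oxidative muscle fibres are rich in mitochondria and in these transcripts. mt-Nd2, mt-Nd4 and mt-Nd5 encode the large antiporter-like subunits of the proton-pumping arm. mt-Nd1 and mt-Nd3 encode subunits beside the ubiquinone-binding site. mt-Nd4l and mt-Nd6 encode smaller subunits of the membrane arm. mt-Nd4l and mt-Nd4 are read from 1 shared mRNA, and mt-Nd6 is the only member carried on the opposite strand of the DNA.

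Library totals ran from 26997674 to 34254957 estimated counts, and all 7 genes passed the filter on low counts that left 16661 genes for testing. The lowest estimated count of any member in any library was 1805, for mt-Nd6, so counting error was small beside the spread between libraries. CPM below give a gene's count in proportion to its library total, on the usual CPM scale, after scaling by trimmed mean of M values (TMM). The TMM factors, which multiply the library totals, ran from 0.916 to 0.955 in HRT control, 1.01 to 1.28 in HRT overload, 0.844 to 0.93 in LRT control and 0.977 to 1.18 in LRT overload. The RNA integrity number (RIN) was 8.27 ± 0.216 (SD, n = 6) in HRT control, 8.97 ± 0.327 in HRT overload, 8.28 ± 0.147 in LRT control and 8.67 ± 0.258 in LRT overload. Markers of muscle fibres and of other cell types could not be matched to the identifiers and are not analysed here. In whole muscle, fewer mitochondria-rich cells in the sample and less of these RNAs per cell cannot be told apart. Counts of different genes are not compared as levels, because gene lengths were not used.

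The 7 genes together took up a smaller part of the library after overload on average, and in HRT the ranges were apart. Their summed counts were 0.542% ± 0.0378 (SD, n = 6) of all counts in HRT control (lowest 0.491%, median 0.544%, highest 0.599%). In HRT overload they were 0.345% ± 0.0726 (lowest 0.261%, median 0.347%, highest 0.415%). No HRT overload library reached the lowest HRT control library. LRT control libraries were widely spread, at 0.471% ± 0.148 (lowest 0.298%, median 0.453%, highest 0.698%). LRT overload libraries were at 0.36% ± 0.0452 (lowest 0.314%, median 0.357%, highest 0.437%) and lay inside the LRT control range. These shares use library totals alone and do not depend on TMM; they are given without a test, since the sum runs over chosen genes.

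**Figure D1:**
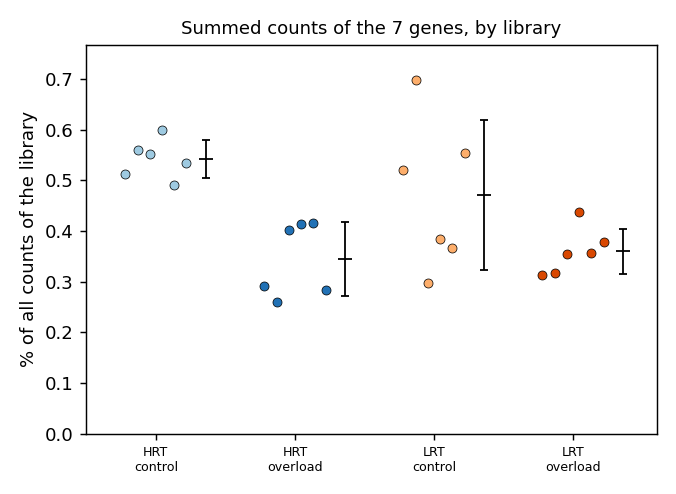
Summed estimated counts of the 7 genes as a percentage of all counts of the library (y axis), for the 4 groups (x axis); each point is 1 library and the bar gives the mean and SD of 6 libraries. HRT control libraries (0.491% to 0.599%) lie above HRT overload libraries (0.261% to 0.415%), while the 2 LRT groups overlap.

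The first comparison asked how overload changed these mRNAs in HRT muscle. All 7 fell, to between 0.497 and 0.583 of the control level. mt-Nd1 was at 853 ± 81.9 CPM in control (lowest 733, median 856, highest 959) and at 424 ± 146 CPM after overload (lowest 269, median 426, highest 581). The log2 fold change was −1.01 ± 0.231 (SE; edgeR adjusted p = 0.000573), and the control and overload libraries did not overlap. mt-Nd3 was at 1697 ± 139 CPM in control (lowest 1449.9, median 1736, highest 1851) and 849 ± 251 CPM after overload (lowest 577, median 842, highest 1157). Its log2 fold change of −0.999 ± 0.174 had the smallest adjusted p of the 7 (edgeR adjusted p = 2.73e-05).

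All 3 antiporter-like subunits fell in HRT. mt-Nd2 went from 504 ± 50.5 CPM (lowest 429, median 520.2, highest 552) to 253 ± 90.1 CPM (lowest 161, median 250.1, highest 372), a log2 fold change of −0.99 ± 0.229 (edgeR adjusted p = 0.000629). mt-Nd4 went from 1152 ± 87.6 CPM (lowest 1045, median 1165, highest 1291) to 636 ± 200.1 CPM (lowest 410.1, median 640.1, highest 854), a log2 fold change of −0.86 ± 0.184 (edgeR adjusted p = 0.000293). mt-Nd5 moved least, from 1274 ± 81 CPM (lowest 1179.8, median 1276, highest 1382) to 743 ± 199 CPM (lowest 523, median 775, highest 928), with a log2 fold change of −0.78 ± 0.168 (edgeR adjusted p = 0.000309). In each of these genes every overloaded HRT library was below every HRT control library. The smaller membrane-arm subunits fell as well. mt-Nd4l was at 149 ± 13.1 and 80.3 ± 26.7 CPM (ranges 133 to 169 and 51.7 to 115; log2 fold change −0.89 ± 0.197, edgeR adjusted p = 0.000424). mt-Nd6, from the opposite strand, was at 124 ± 7.16 and 69.5 ± 20.9 CPM (ranges 114 to 131 and 45.2 to 90.9; log2 fold change −0.83 ± 0.206, edgeR adjusted p = 0.00123).

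Of all tested genes, 31.2% were called lower in this comparison (edgeR adjusted p under 0.05), against 7 of 7 members. For 17.1% of all tested genes the HRT overload libraries all lay below the HRT control libraries, which was so for 7 of 7 members. The median log2 fold change was −0.89 over the 7 members and −0.02 over all genes tested. All 7 calls held in each of 22 alternative settings, RIN as a covariate and single libraries left out among them. RIN ran from 8 to 8.6 in HRT control and from 8.6 to 9.4 in HRT overload, so the covariate can separate RIN from overload only in part. Scaling by library totals alone moved the median of all genes to 0.27, and 7942 genes were then called higher and 2238 lower, against 5319 and 5204 with TMM. The members were still called lower, with log2 fold changes between −0.75 (mt-Nd1) and −0.51 (mt-Nd5).

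**Figure D2:**
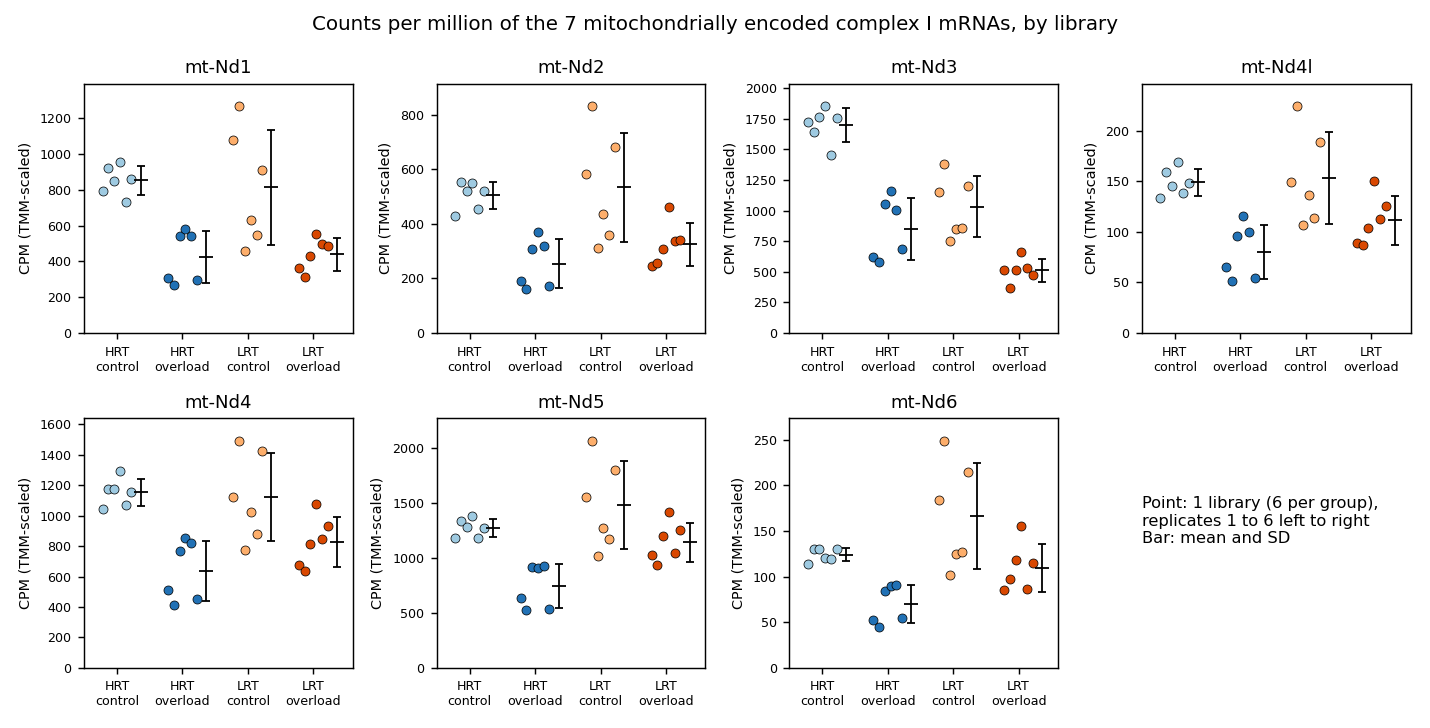
TMM-scaled CPM (y axis, from 0, own scale in each panel) of each of the 7 genes in the 4 groups (x axis); each point is 1 library, replicates 1 to 6 from left to right, and the bar gives the mean and SD. HRT overload libraries lie below HRT control libraries in every panel, LRT control libraries spread widely, and for mt-Nd3 both LRT groups sit low (LRT control 755 to 1383, HRT control 1449.9 to 1851).

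The second comparison asked the same of LRT muscle, where all 7 log2 fold changes were negative and 6 of the 7 genes were called lower. mt-Nd3 fell most, from 1032 ± 247 CPM in control (SD, n = 6; lowest 755, median 1002, highest 1383) to 511 ± 93.8 CPM (lowest 370.4, median 515, highest 659). Its log2 fold change was −1.02 ± 0.174 (SE; edgeR adjusted p = 3.14e-05), and it was the only 1 of the 7 members whose LRT control and overload libraries did not overlap. Among all genes tested, 15.5% had LRT overload libraries that all lay below the LRT control libraries. mt-Nd1 fell from 815 ± 322 CPM (lowest 456, median 772, highest 1268) to 440.2 ± 91.6 CPM (lowest 311, median 458, highest 556), a log2 fold change of −0.89 ± 0.23 (edgeR adjusted p = 0.00213). LRT control replicate 3 was the lowest control library for both genes, and for mt-Nd1 it lay within the overload range.

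Of the antiporter-like subunits, mt-Nd2 and mt-Nd4 fell in LRT and mt-Nd5 did not pass the test. mt-Nd2 fell from 534 ± 200.5 CPM (lowest 313, median 509.7, highest 831) to 325 ± 77.7 CPM (lowest 247, median 321, highest 462), a log2 fold change of −0.72 ± 0.228 (edgeR adjusted p = 0.0098). mt-Nd4 was at 1121 ± 288 CPM (lowest 776, median 1074, highest 1490.4) and 829.1 ± 163 CPM (lowest 634, median 829.5, highest 1075), a log2 fold change of −0.43 ± 0.183 (edgeR adjusted p = 0.046). mt-Nd5 was at 1482 ± 399.9 CPM (lowest 1021, median 1412, highest 2067) and 1147 ± 178 CPM (lowest 935, median 1121, highest 1416.5), a difference of −0.37 ± 0.167 that did not pass (edgeR adjusted p = 0.0621). In all 3 genes the overload libraries overlapped the lower control libraries. mt-Nd4l, on the mRNA of mt-Nd4, was at 153 ± 45.4 and 111 ± 23.9 CPM (ranges 107 to 224 and 86.8 to 149.9; log2 fold change −0.46 ± 0.196, edgeR adjusted p = 0.0486). mt-Nd6 was at 167 ± 58.2 and 109.6 ± 26.2 CPM (ranges 102 to 249 and 85.5 to 155; log2 fold change −0.61 ± 0.205, edgeR adjusted p = 0.0149).

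With overload in LRT, 6 of 7 members were called lower, and 28.3% of all tested genes were called lower. Before adjustment, 7 members had p under 0.05, each with a negative log2 fold change, and 10207 of the 16661 genes tested had p under 0.05 in either direction. The median log2 fold change was −0.61 over the members and −0.02 over all genes tested. mt-Nd1, mt-Nd2 and mt-Nd3 were called in all 23 alternative settings. mt-Nd6 was called in 20 and lost without LRT control replicate 2 (edgeR adjusted p = 0.0542), with library-total scaling and in a fit to the 2 LRT groups alone. mt-Nd4 and mt-Nd4l were near the threshold and were called in 9 and 7 of the 23 settings. Both lost their call without any 1 of LRT control replicates 1, 2 or 6 and LRT overload replicates 1, 2, 3 or 5. The edgeR adjusted p were then up to 0.127 and 0.157. Both calls were also lost with library-total scaling, DESeq2's size factors, limma-voom, no filter, a stricter filter, or the 2 LRT groups alone. That of mt-Nd4l was lost too with replicate number added to the model as a block (edgeR adjusted p = 0.0503). With this replicate block and RIN together it was again lost (0.0594). mt-Nd5 passed in 3 settings, without LRT control replicate 3 (edgeR adjusted p = 0.0219), LRT control replicate 5 (0.0394) or LRT overload replicate 4 (0.0358). With LRT control replicates 2 and 3 both left out, 4 members were called lower. Under library-total scaling 3 members were called lower, the median of all genes moved to 0.22, and 6765 genes were called higher and 1893 lower, against 4808 and 4716 with TMM.

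**Figure D3:**
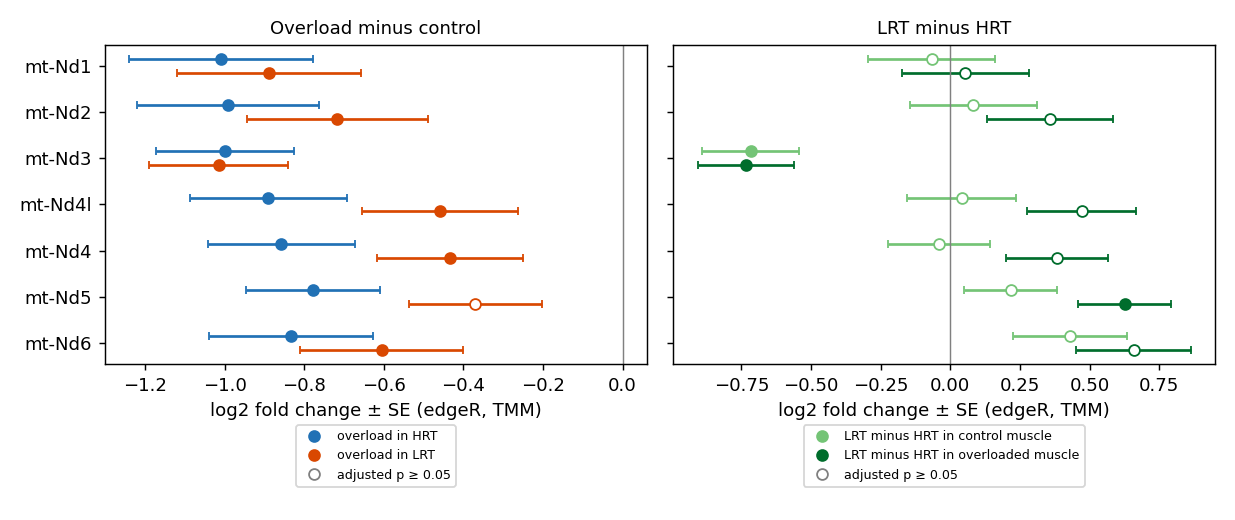
Log2 fold changes (x axis) with standard errors from edgeR for each gene (y axis): overload against control within each line (left) and LRT against HRT within each state (right); filled points have an adjusted p under 0.05 and open points do not. All HRT overload values lie between −1.01 and −0.78 and LRT values between −1.02 and −0.37, and mt-Nd3 is the gene whose line differences (−0.72 and −0.73) lie below 0 in both states by more than their standard errors.

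The difference between the responses of the lines was then tested directly. The test called 0 of 7 members (edgeR), and 0 had an unadjusted p under 0.05, against 2265 of the 16661 genes tested. DESeq2 and limma-voom also called 0. The differences, LRT minus HRT, were largest for mt-Nd4l (0.43 ± 0.277 on the log2 scale, edgeR adjusted p = 0.492), mt-Nd4 (0.42 ± 0.259, edgeR adjusted p = 0.469) and mt-Nd5 (0.41 ± 0.236, edgeR adjusted p = 0.448). They were 0.28 ± 0.321 for mt-Nd2, 0.23 ± 0.29 for mt-Nd6, 0.12 ± 0.323 for mt-Nd1 and −0.02 ± 0.244 for mt-Nd3 (edgeR adjusted p between 0.73 and 0.986). Across all genes 0.048% passed this test, so it called few genes of any kind.

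The lines were next compared within each state, and in control muscle mt-Nd3 was the only member called. It was lower in LRT, at 1032 ± 247 CPM where HRT had 1697 ± 139, a log2 fold change of −0.72 ± 0.173 (SE, n = 6 per group; edgeR adjusted p = 0.0288). Every LRT control library, the highest at 1383 CPM, was below every HRT control library, the lowest at 1449.9 CPM. The other 6 were not called, with log2 fold changes of −0.07 ± 0.228 for mt-Nd1, 0.08 ± 0.227 for mt-Nd2, 0.04 ± 0.195 for mt-Nd4l, −0.04 ± 0.183 for mt-Nd4, 0.22 ± 0.167 for mt-Nd5 and 0.43 ± 0.205 for mt-Nd6 (edgeR adjusted p between 0.293 and 0.948). Of all tested genes 0.75% were called lower in LRT control muscle, and for 0.9% the LRT libraries all lay below the HRT ones. The size of the mt-Nd3 difference was steady over 23 alternative settings, at −0.82 to −0.64, but its adjusted p crossed the threshold. The call was lost without any 1 of HRT control replicates 1, 3, 4 or 6 or LRT control replicates 3, 4 or 5, with edgeR adjusted p between 0.0508 and 0.0827. It was also lost with the replicate block (edgeR adjusted p = 0.0551) and with the block and RIN (0.0543). The adjusted p ran from 0.00381 to 0.0827 over all settings.

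In overloaded muscle mt-Nd3 was again lower in LRT, with 511 ± 93.8 CPM and 849 ± 251 in HRT (SD, n = 6). The log2 fold change was −0.73 ± 0.173 (SE; edgeR adjusted p = 0.0245), and here the ranges overlapped, with LRT up to 659 CPM and HRT down to 577. mt-Nd5 was higher in LRT, with 1147 ± 178 CPM and 743 ± 199 in HRT, and its log2 fold change was 0.63 ± 0.168 (edgeR adjusted p = 0.0433). The lowest LRT overload library (935 CPM) was just above the highest HRT overload library (928 CPM). mt-Nd6 was at 109.6 ± 26.2 against 69.5 ± 20.9 CPM (0.66 ± 0.206, edgeR adjusted p = 0.0736), mt-Nd4l at 111 ± 23.9 against 80.3 ± 26.7 CPM (0.47 ± 0.196, edgeR adjusted p = 0.158) and mt-Nd4 at 829.1 ± 163 against 636 ± 200.1 CPM (0.38 ± 0.183, edgeR adjusted p = 0.219). mt-Nd2 and mt-Nd1 differed by 0.36 ± 0.227 and 0.05 ± 0.228 (edgeR adjusted p = 0.362 and 0.919).

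Of all tested genes, 1.49% were called lower and 1.6% higher in LRT overloaded muscle, against 1 and 1 of 7 members. The groups did not overlap, with LRT higher, for 0.864% of all genes. In a fit to the 2 overloaded groups alone neither gene was called (edgeR adjusted p = 0.122 for mt-Nd3 and 0.141 for mt-Nd5). The mt-Nd3 call was also lost without LRT overload replicate 3 (0.056) or 6 (0.0505), and with RIN as a covariate (0.0609). With the replicate block and RIN together its edgeR adjusted p was 0.137. The mt-Nd5 call was lost with the replicate block (0.0587) and with the block and RIN (0.084). It was also lost without any 1 of HRT overload replicates 1, 2 or 6 or LRT overload replicates 1, 3, 4, 5 or 6, with adjusted p up to 0.104, and with no filter on low counts (0.0506). mt-Nd6 was called higher in LRT with the DESeq2 Wald test (adjusted p = 0.02998) and, by edgeR, without HRT overload replicate 3 (0.0417) or 4 (0.0371), and in none of its other 19 settings. RIN was lower in LRT overload (8.67) than in HRT overload (8.97), and its part in these differences was tested only through the covariate. With library-total scaling the 2 calls held, while the split of all genes moved from 266 higher and 248 lower to 225 higher and 1928 lower. In control muscle the same change of scaling moved that split from 203 and 125 to 76 and 186.

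The make-up of the 7-gene sum shows the line difference without any scaling between libraries. mt-Nd3 gave 29.5% ± 1.45 (SD, n = 6) of the summed counts in HRT control (lowest 27.7%, highest 31.7%) and 27.9% ± 1.61 in HRT overload (lowest 26%, highest 30.4%). It gave 19.7% ± 1.27 in LRT control (lowest 18.4%, highest 21.4%) and 14.7% ± 1.55 in LRT overload (lowest 12.6%, highest 17.2%). All 12 LRT libraries lay below all 12 HRT libraries, and LRT overload lay below LRT control without overlap, while the 2 HRT states overlapped. This measure was chosen after the values had been seen and is given without a test. As a log2 ratio of mt-Nd3 to the sum of the other 6 genes, the means were −1.26 ± 0.1 in HRT control, −1.37 ± 0.115 in HRT overload, −2.03 ± 0.115 in LRT control and −2.54 ± 0.178 in LRT overload. The ratio of mt-Nd3 to mt-Nd4 counts alone was 1.35 to 1.65 in HRT control and 0.83 to 1.02 in LRT control. After overload it was 1.21 to 1.51 in HRT and 0.504 to 0.764 in LRT.

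Other members made up the difference in different measure. mt-Nd5 gave 22.2% ± 0.497 of the sum in HRT control, 24.6% ± 1.55 in HRT overload, 28.1% ± 0.883 in LRT control and 33.2% ± 1.83 in LRT overload. Its lowest LRT overload library (30.2%) was above its highest LRT control library (29%), and its HRT groups overlapped. Shares of the same sum are tied, and the CPM of mt-Nd5 did not rise with overload in LRT (log2 fold change −0.37). The share of mt-Nd1 was lower after overload in both lines, at 14.8% ± 0.47 and 13.7% ± 0.674 in HRT and 15% ± 2.19 and 12.6% ± 1 in LRT. LRT control replicates 1 and 2 had mt-Nd1 shares of 18.5% and 16.9%, against 12.9% to 14.2% in the other 4 LRT control libraries. mt-Nd2 was at 8.76% ± 0.465 and 8.19% ± 0.518 in HRT and 9.86% ± 0.896 and 9.3% ± 0.742 in LRT, with the groups overlapping. mt-Nd4 was at 20% ± 0.539 and 20.7% ± 0.652 in HRT and 21.3% ± 1.41 and 23.8% ± 0.888 in LRT.

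**Figure D4:**
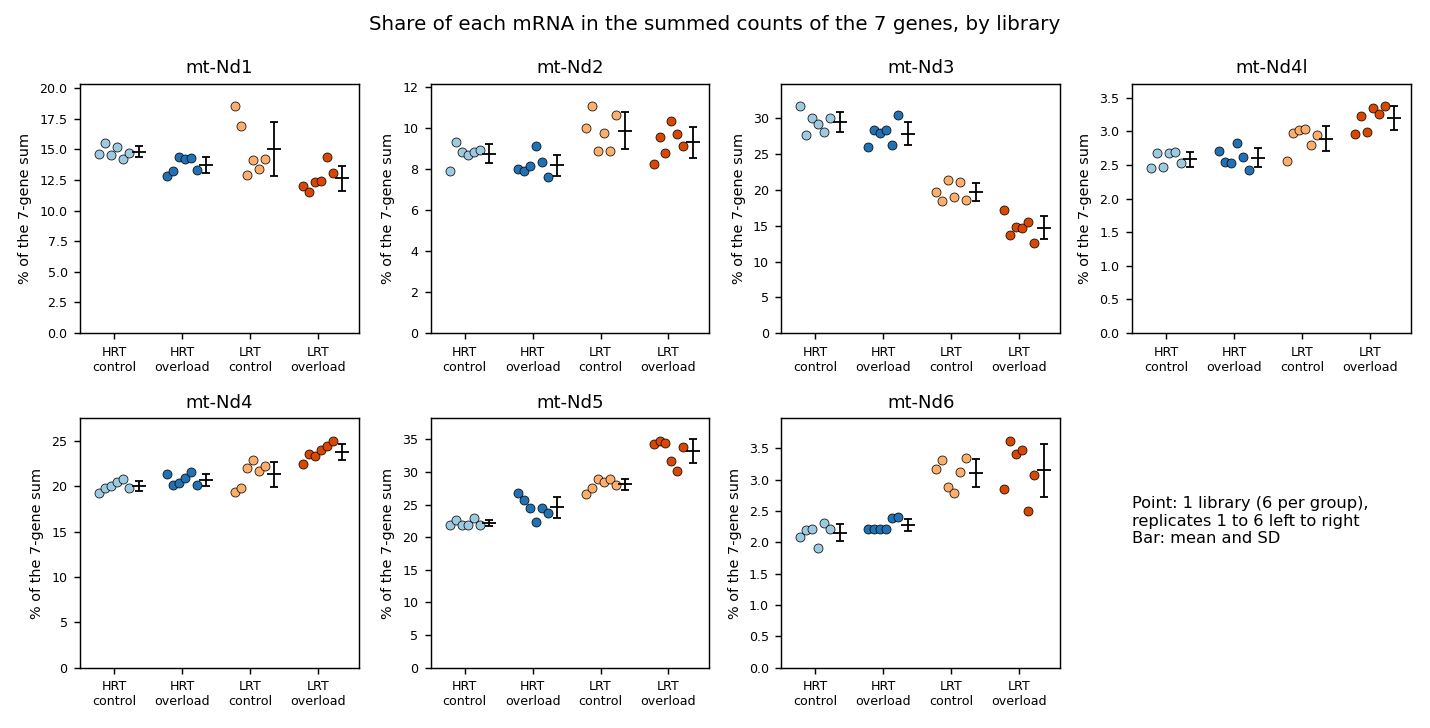
Share of each gene in the summed estimated counts of the 7 genes (y axis, percent, from 0, own scale in each panel) in the 4 groups (x axis); each point is 1 library, replicates 1 to 6 from left to right, and the bar gives the mean and SD. For mt-Nd3 the 12 HRT libraries (26% to 31.7%) lie above the 12 LRT libraries (12.6% to 21.4%), and for mt-Nd6 they lie below (1.9% to 2.41% against 2.5% to 3.62%). Shares of 1 sum are tied, so a lower mt-Nd3 share raises those of the other genes. The CPM of mt-Nd6 were not called different between lines (edgeR adjusted p = 0.293 in control and 0.0736 in overloaded muscle).

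mt-Nd6, the member from the opposite strand, was compared with the sum of the other 6 in each library. The log2 ratio of its counts to the sum of the others was −5.51 ± 0.1 (SD, n = 6) in HRT control and −5.42 ± 0.0611 in HRT overload. In LRT it was −4.97 ± 0.109 in control and −4.95 ± 0.208 in overload. All LRT libraries (−5.28 to −4.74) lay above all HRT libraries (−5.69 to −5.34). That split did not hold against the mean log2 count of the other 6 in place of their sum. LRT overload replicate 5 (−2.39) was then below HRT overload replicate 6 (−2.36). The LRT control mean minus the HRT control mean was 0.54 with the sum and 0.49 with the mean log2 count. mt-Nd3 is part of the sum and of the mean, so its line difference enters both ratios. Against mt-Nd5 alone the mt-Nd6 ratio overlapped between lines, at 0.0871 to 0.102 in HRT control and 0.0983 to 0.12 in LRT control. After overload it was 0.0827 to 0.101 in HRT and 0.083 to 0.109 in LRT. However, mt-Nd5 itself gave a larger mean share of the member sum in LRT control (28.1%) than in HRT control (22.2%). After overload its mean shares were 33.2% in LRT and 24.6% in HRT. The overlap against mt-Nd5 therefore cannot show how much of the mt-Nd6 line difference came from mt-Nd3. Ratios of mt-Nd6 to the other single members were not computed. Whether the authors' counting used strand is not given in the sources used here, so reads of mt-Nd6 and of RNA copied from the other strand of the same stretch cannot be told apart.

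mt-Nd4l and mt-Nd4, which share an mRNA, kept the narrowest ratio of those computed. mt-Nd4l over mt-Nd4 counts was 0.129 ± 0.00389 in HRT control, 0.126 ± 0.00514 in HRT overload, 0.136 ± 0.00756 in LRT control and 0.134 ± 0.00404 in LRT overload. The 2 reading frames overlap, so some reads had to be divided between them by the authors' estimate. Within groups, deviations of log2 CPM from the group mean correlated at r = 0.989 between these 2 genes over 24 libraries. For all 21 pairs of members r ran from 0.866 (mt-Nd3 with mt-Nd6) to 0.989, with a median of 0.938. The points share their library and its scaling, and no test was made. mt-Nd2 over mt-Nd1 counts was less even, at 0.54 to 0.622 in HRT control, 0.568 to 0.639 in HRT overload, 0.541 to 0.748 in LRT control and 0.675 to 0.832 in LRT overload.

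The genes most like the members were ranked by how their deviations from group means followed the mean deviation of the 7 over 24 libraries, among 12222 other genes. The median r of these genes was 0.0134. The closest were ENSRNOG00000031979 (r = 0.983) and ENSRNOG00000031766 (r = 0.969), which the table does not name. ENSRNOG00000031979 was at 2043 ± 228 CPM in HRT control (SD, n = 6) and 1083 ± 335 in HRT overload, a log2 fold change of −0.92 (edgeR adjusted p = 0.000232). The LRT value was −0.59 on the same scale (edgeR adjusted p = 0.0109). ENSRNOG00000031766 went by −0.75 in HRT and −0.40 in LRT on the log2 scale (edgeR adjusted p = 0.000936 and 0.063). Neither differed between lines past the threshold in control muscle (differences of −0.04 and 0.09 on the log2 scale, edgeR adjusted p = 0.944 and 0.866). Among the members only mt-Nd3 did so there. The most opposed genes were ENSRNOG00000013092 (r = −0.874) and ENSRNOG00000003840 (r = −0.858). ENSRNOG00000003840 rose with overload, by 2.52 in HRT and 1.40 in LRT on the log2 scale (edgeR adjusted p = 5.53e-06 and 0.00269), from 1.33 ± 0.292 to 7.63 ± 4.81 CPM and from 1.76 ± 0.666 to 4.65 ± 1.78 CPM. ENSRNOG00000013092 was not called in either line, at −0.07 and −0.23 on the log2 scale (edgeR adjusted p = 0.76 and 0.279). Correlations of this kind share library scaling and describe these 24 libraries.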

How the data were processed

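The deposited table holds estimated counts per Ensembl gene ID, not normalized by the authors. Salmon 0.9.1 is listed in the submitters' processing notes, as are Rnor_6.0 and rn6 as builds. Annotation, settings and use of strand were not given in these sources. Estimated counts divide reads shared between similar sequences, and nuclear copies of mitochondrial DNA can share reads with the members. Groups came from the titles. Counts were rounded, filtered with filterByExpr (minimum count 10, minimum total 15) and scaled by TMM. One edgeR 4.0.16 quasi-likelihood model (R 4.3.3, robust) took in all 24 libraries, with 1 mean per group. Benjamini-Hochberg adjustment ran over 16661 genes, with a threshold of 0.05. SE was computed as the size of the log2 fold change divided by the root of F. The model was also run on simulated counts drawn with the spreads it had estimated from these data, so that run does not check those estimates.

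All members are named; likeness ranked genes whose log2 CPM averaged 1 or more, and 2 are named at each end. Members and lists were chosen with earlier results of these data known. None of the IDs matched the 47357 genes of the reference table (assembly GRCr8), so lists of nuclear complex I subunits, assembly factors, mitochondrial RNA factors, other mitochondrial genes and cell type markers were not analysed. Alternatives used DESeq2 1.42.0, limma 3.58.1, other scalings, filters and covariates, and left-out libraries. Plots used matplotlib 3.10.9.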

Additional observations from a re-analysis of the deposited data

How the results depend on the processing

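The fall of the 7 genes with overload in HRT was called in all 22 alternative settings. For overload in LRT 6 members were called, which became 3 with library-total scaling and 3 with the LRT groups alone. The number was 4 with DESeq2's size factors, limma-voom, no filter or a stricter filter, and 3 to 7 with single libraries left out. The difference between responses called 0 members in all 34 settings. For the line difference in control muscle the 1 member called became 0 with the replicate block and 0 with the replicate block and RIN, and 0 to 1 with single libraries left out. In overloaded muscle 2 members became 1 with no filter, 1 with RIN as a covariate, 1 with the replicate block, 0 with the replicate block and RIN and 0 with the groups alone, and 0 to 3 with single libraries left out. The cause was not tested.

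Over all genes, 8 passed the difference between responses. This count was 1 with DESeq2's size factors, 137 with the DESeq2 Wald test, 2 with limma-voom, 5 with no filter, 2 with RIN, 1 with the replicate block, 1 with block and RIN, and 1 to 25 with single libraries left out. In control muscle 328 line differences became 619 with the DESeq2 Wald test, 206 with no filter and 154 to 495 with single libraries left out. In overloaded muscle 514 became 2153 with library-total scaling, 1093 with the DESeq2 Wald test, 307 with no filter, 785 with RIN, 289 with block and RIN, 115 with the groups alone and 171 to 1647 with single libraries left out.

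Signs turned where values lay near 0 and were not called. The mt-Nd3 difference between responses (−0.0163) became 0.0433 with limma-voom, 0.00497 with no filter, 0.101 with RIN, 0.129 with block and RIN, 0.00922 without LRT control replicates 2 and 3 (chosen after seeing the data) and −0.106 to 0.0924 with single libraries left out. That of mt-Nd1 ran from −0.00192 to 0.289. In control muscle, library-total scaling gave −0.000433 for mt-Nd2 and −0.0451 for mt-Nd4l, which was −0.00308 with limma-voom and −0.0159 without both LRT replicates. With single libraries left out these ran from −0.0862 to 0.198 and −0.098 to 0.127, mt-Nd1 from −0.235 to 0.0559 and mt-Nd4 from −0.138 to 0.046. In overloaded muscle mt-Nd1 was −0.0651 with library-total scaling and −0.048 to 0.165 with single libraries left out.

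Same-numbered control and overload libraries correlated at −0.0978 to 0.127, with 1 of 12 pairs above 0.1. Of the control libraries, 3 of 12 correlated best with their own number. No value for known pairs was at hand, so whether the replicate numbers pair libraries is not settled by this. Depth was high for all members.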

Other observations

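The summed share of the 7 genes varied among libraries of a group, and the values by library are given here without a test. HRT overload replicates 1 to 6 were at 0.292%, 0.261%, 0.401%, 0.413%, 0.415% and 0.284% of all counts. Their TMM factors, in the same order, were 1.22, 1.28, 1.06, 1.01, 1.09 and 1.27, and their RIN values 8.6, 8.6, 9.4, 8.9, 9.1 and 9.2. LRT control replicates 1 to 6 were at 0.521%, 0.698%, 0.298%, 0.385%, 0.367% and 0.555%. Their TMM factors were 0.895, 0.93, 0.844, 0.862, 0.903 and 0.864, and their RIN values 8.2, 8.1, 8.3, 8.2, 8.4 and 8.5. The share of mt-Nd3 in the 7-gene sum spanned 26% to 30.4% in HRT overload and 18.4% to 21.4% in LRT control. The part of RIN and scaling in this spread was not tested.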
